A study of Mus musculus with 8 samples.

Results

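The comparison described here is the response of wild-type mouse CD8 T cells to the peptide N4 after 18 h: the arrays labelled WT - N4 (2 arrays) against those labelled WT - UN (2 arrays), 4 of the 8 arrays of the series. CD8 T cells of C57BL/6 mice were pulled from spleen with magnetic beads by positive selection and cultured with dendritic cells grown from bone marrow (BMDCs), with 10 T cells for each dendritic cell. In the N4 group the dendritic cells carried the ovalbumin (OVA) peptide SIINFEKL, called N4. In the UN group they were not pulsed with peptide, so that cells of both groups had been cultured with dendritic cells. After culture the dendritic cells were taken out through CD11c, and RNA of the remaining cells was hybridised to one-colour Affymetrix arrays. Which antigen receptor these T cells carried is not stated in the labels. Nor do the labels tie the 2 arrays of a group to separate mice or cultures, so p-values measure only the spread between these arrays, which may be technical. All probe sets with 1 gene symbol, 34945 of 45101, were members of the comparison. After a filter on low signal, 12520 genes were tested, each through the probe set with its highest mean over all 8 arrays.

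A T cell reads a peptide on an MHC molecule through its antigen receptor, which signals through kinases, calcium, diacylglycerol and Ras to transcription factors of the NFAT, AP-1 and NF-kB families. A CD8 T cell that receives this signal together with costimulation leaves the resting state, enlarges, builds ribosomes, copies its DNA, and acquires cytokines and the granule proteins with which it kills. It also gives up receptors and regulators of the resting cell, such as the transcription factor Klf2 and the receptor for interleukin 7.

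Signals are given as log2(signal + 16), where the signal is the deposited intensity of a probe set, and a change is the mean of the N4 arrays minus the mean of the non-pulsed arrays on that scale. The arrays of a group correlated at r = 0.979 (non-pulsed) and 0.977 (N4) across genes, and the median SD between them was 0.173 and 0.187. Over all genes tested the median change was -0.10. It became 0.09 after quantile normalization and 0.30 after each array was centred on its median, so changes of that size have no fixed sign. Median centring raises every change by the same amount. Below, a value in brackets beside a setting is the change under that setting, such as an offset other than 16, the mean or median of a gene's probe sets in place of the brightest, or 1 array left out. The non-pulsed arrays were not alike: 49 genes lay at least 4-fold apart between them, and all 49 were higher on the second. They included Xist, the RNA of the inactive X chromosome, at 6.05 and 11.84 on the non-pulsed arrays and 5.18 and 6.65 on the N4 arrays. Only the second non-pulsed array had a high Xist signal. Effector transcripts lay apart in the same direction, with Ifng at 5.58 and 7.79, Gzmb at 7.43 and 9.89 and Il17a at 6.25 and 10.81 on the first and second non-pulsed array. Changes of such genes were therefore larger between the arrays numbered 1 than between those numbered 2.

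With N4, 5101 of the 12520 genes (40.7%) had a limma adjusted p under 0.05. Of these, 2159 rose (17.2% of genes tested) and 2942 fell (23.5%). The falls were deeper than the rises, with a median size of 1.35 against 0.87 on the log2 scale. At least 2-fold changes made up 68.7% of the falls and 37.3% of the rises, and 154 genes fell but 15 rose by 4 or more on the log2 scale, which is 16-fold. Of all calls, 42.3% were rises. That share was 52.6% after quantile normalization and 61.1% after median centring. All 5101 genes changed the same way between the arrays numbered 1 and between those numbered 2. That is no separate check, since the genes were called on these same arrays. Of the called genes, 614 rises and 1729 falls reached 2-fold in both. The groups also did not overlap in any of the 2159 rises and 2942 falls. Separation of the groups in a called gene below is therefore no added support. Counting every probe set with 1 symbol and no filter, 20.9% of 34945 passed, 2874 higher and 4425 lower. With the replicate number as a block, 4446 probe sets were higher. Without the first N4 array 1405 genes rose and 2141 fell. Leaving out 1 array in turn gave 1578 to 1844 probe sets higher, and the lower ones numbered 2724 without the first N4 array and 2843 without the second non-pulsed array. Under median centring 1441 genes fell, and changes of at least 2-fold numbered 1891 rises and 1339 falls. Counts in the gene lists below are to be read beside the 40.7% of all genes called. The called share was near it for early receptor factors (40.9%), JAK and STAT genes (42.3%), cell death (42.9%) and the cytoskeleton (44.2%). It was also near for NK genes (44.4%), antigen receptor genes (44.8%) and effector factors (45.9%).

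**Figure D1:**
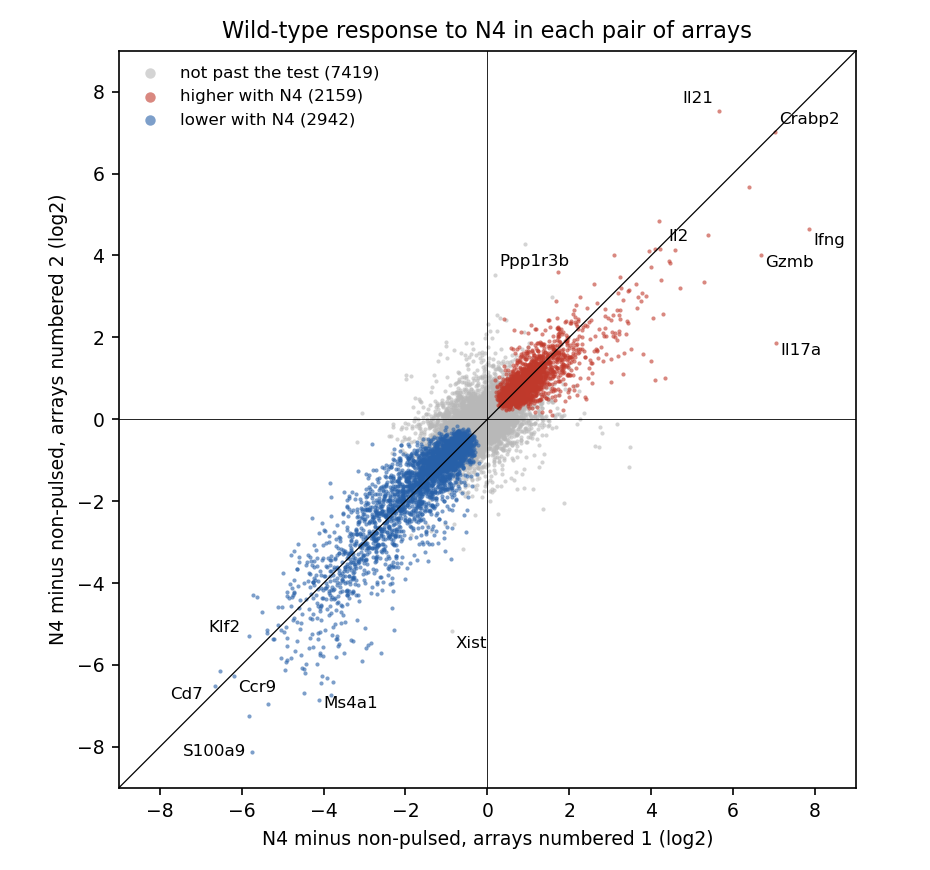
Change with N4 between the arrays numbered 1 (horizontal axis, log2) against the change between the arrays numbered 2 (vertical axis, log2), 1 point per gene, with the 2159 higher genes in red, the 2942 lower in blue and 7419 not past the test in grey. Most coloured points lie near the diagonal of equal change, and Ifng, Gzmb and Il17a lie below it, with larger rises between the arrays numbered 1.

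Markers of B cells and myeloid cells were plentiful on the non-pulsed arrays and lower with N4, although dendritic cells had been removed from both groups. All 22 measured B cell genes fell, with a median of -3.83, as did all 8 MHC class II genes (-3.39) and all 15 neutrophil genes (-3.87). Of 44 dendritic cell and macrophage genes 38 fell, with a median of -3.84. The summed linear signal of the B cell list was 109649 and 75159 on the non-pulsed arrays and 14881 and 7102 on the N4 arrays. For the dendritic cell and macrophage list it was 194062 and 155259 against 39176 and 23938. In both lists the N4 arrays lay below the non-pulsed arrays, and the first N4 array kept more signal than the second. Ms4a1, which encodes CD20 of B cells, had 13.78 and 13.42 on the non-pulsed arrays and 9.67 and 6.57 on the N4 arrays, and the neutrophil alarmin gene S100a9 had 11.43 and 12.36 on the non-pulsed arrays and 5.69 and 4.24 on the N4 arrays. Lists of other lymphocytes were mixed. Of 9 NK cell genes 3 fell, 1 rose and 5 did not pass (median -0.45). Their summed signal was 22855 and 19413 on the non-pulsed arrays and 5124 and 6755 on the N4 arrays. That sum includes Tyrobp, the deepest fall of the list, with 13.12 and 12.31 on the non-pulsed arrays and 8.32 and 6.47 on the N4 arrays. Of 8 CD4 and regulatory T cell genes 3 fell and 2 rose (median 0.03), with sums of 5041 and 7295 against 6742 and 11457 with N4. Of 7 gamma-delta T cell and IL-17 lineage genes 4 fell and 1 rose (median -2.94), with sums of 6645 and 8544 against 11001 and 7350. The sums overlapped between the groups in the last 2 lists, but the brightest genes weigh most in a linear sum. The CD4 list includes Ctla4, with 9.53 and 10.46 on the non-pulsed arrays and 12.40 and 13.16 on the N4 arrays. The gamma-delta list includes Il17a, with 6.25 and 10.81 against 13.29 and 12.68. Overlap of these sums therefore does not show that the other markers of the 2 lists were kept. The CD8 T cell genes did not fall as a list. Their summed signal over 7 genes was 34756 and 36833 on the non-pulsed arrays and 45429 and 40917 with N4, Cd8a rose by 1.07 and neither Cd8b1 (0.01) nor Cd3e (-0.04) passed the test. In whole-sample RNA, fewer cells of a type and less RNA of that type in each cell cannot be told apart. Of 119 measured genes in the 8 lists of other cells 98 fell at least 2-fold, and 17 of the 40 largest falls in the comparison were in those lists. The lists are not complete, so that count depends on which genes were listed. Immunoglobulin genes and further myeloid genes were among the 40 largest falls but in none of the 8 lists, as were Klf2 and Ccr9. The part of these cells in the other falls below was not tested. Cd8a (0.25 with the median of probe sets) missed the limma threshold.

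**Figure D2:**
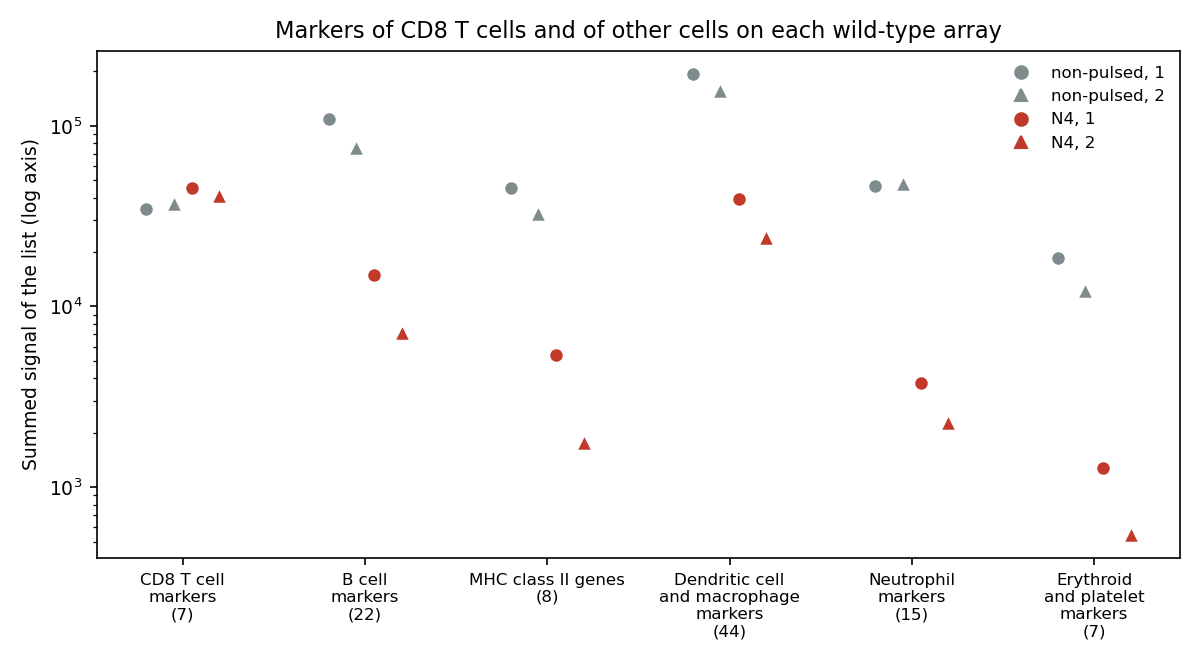
Summed linear signal of 6 marker lists (log axis) on each wild-type array, non-pulsed in grey and N4 in red, with circles for replicate 1 and triangles for replicate 2 and the number of genes in brackets. The 5 lists of other cells lie lower on both N4 arrays, while the CD8 T cell list lies between 34756 and 45429 on all 4 arrays.

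Interferon-stimulated genes were lower with N4: 32 of 46 measured genes fell and 2 rose, with a median of -1.85. These genes respond to type I interferon through the factor ISGF3, which binds a DNA element with a GAAANNGAA core. The antiviral gene Ifit1bl1 had 11.56 and 11.65 on the non-pulsed arrays and 5.03 and 5.49 on the N4 arrays, a fall of more than 6 log2 units (SE 0.25, limma adjusted p 6.28e-06). Both N4 arrays were close to the filter threshold of 5.38. Ifit1, whose product binds foreign RNA, had 10.25 and 10.08 on the non-pulsed arrays and 5.44 and 6.75 on the N4 arrays and fell by 4.06 (SE 0.44, limma adjusted p 0.000195). Its family member Ifit3 had 10.36 and 9.79 on the non-pulsed arrays and 6.19 and 6.39 on the N4 arrays. The groups did not overlap for any of the 3 genes, as for every called gene. Further falls of more than 2 log2 units were -5.08 for Ifi213, -4.60 for Rtp4, -3.71 for Mx1, -3.41 for Ifih1, -3.08 for Epsti1, -2.98 for Oasl2, -2.89 for Irf7 and -2.77 for Rsad2, and the receptor subunit genes Ifnar1 and Ifnar2 changed by -1.39 and -1.25. Among genes better known as targets of interferon gamma, the GTPase gene Igtp rose by 0.99, and Gbp2 (0.32) and Iigp1 (1.53) did not pass, Iigp1 with 7.26 and 9.55 on the non-pulsed arrays and 10.43 and 9.45 on the N4 arrays. Besides Igtp, the other rise was Bst2 (0.63), which encodes the antiviral protein tetherin. The interferon-stimulated rises numbered 0 without the first N4 array. In limma fits on 7 arrays the adjusted p was 0.122 for Bst2 and 0.077 for Rsad2 without the second non-pulsed array, and 0.107 for Bst2, 0.0574 for Igtp and 0.0847 for Rsad2 without the first N4 array. Gbp2 (0.76 without the second non-pulsed array) and Iigp1 (2.68 without the second non-pulsed array) passed the limma test. Igtp (0.59 without the first non-pulsed array) kept the call with a change of other size.

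Promoter sequences of this list are shown because its members moved together. In RefSeq promoters of GRCm38.p6, taken from 250 bases before to 50 after a gene's start, the letters GAAANNGAA on either strand occurred in 18 of 35 interferon-stimulated genes with a promoter (51.4%), against 8.51% of all tested genes with a promoter and 8.56% of all 32851 promoter windows in the table. The stretches below are printed 5′ to 3′ on the gene's strand, with matches to that motif on either strand in capitals. They lie at chr19:34640740-34640828 (plus strand) for Ifit1, chr19:34583334-34583422 (plus strand) for Ifit3 and chr1:173599297-173599385 (minus strand) for Ifi213.
Ifit1: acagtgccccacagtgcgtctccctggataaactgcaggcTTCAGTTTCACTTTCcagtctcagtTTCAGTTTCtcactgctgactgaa
Ifit3: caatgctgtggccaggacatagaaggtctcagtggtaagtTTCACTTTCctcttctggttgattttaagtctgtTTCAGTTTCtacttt
Ifi213: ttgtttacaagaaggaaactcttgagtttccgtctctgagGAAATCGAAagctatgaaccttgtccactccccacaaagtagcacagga
Ifit1 held 3 matches in its window, of which a pair overlap, Ifit3 held 3 and Ifi213 held 1. A match describes the letters only.

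Of 22 cytokine genes 6 rose (Il21, Ifng, Il3, Il17a, Il2 and Lif) and 8 fell, with a median of -0.04 (0.21 after quantile normalization). Il21, which encodes a helper cytokine for B and CD8 T cells, had 4.14 and 4.29 on the non-pulsed arrays and 9.80 and 11.81 on the N4 arrays; the change was 6.59 (SE 0.55, limma adjusted p 6.31e-05). Ifng, the macrophage-activating interferon, had 5.58 and 7.79 on the non-pulsed arrays and 13.45 and 12.45 on the N4 arrays and a change of 6.26 (SE 0.64, limma adjusted p 0.00016). Il2, the autocrine growth factor of T cells, had 7.12 and 7.60 on the non-pulsed arrays and 11.34 and 11.75 on the N4 arrays and a change of 4.19 (SE 0.30, limma adjusted p 3.77e-05). The non-pulsed arrays were within 1 log2 unit of each other for Il21 and Il2 and further apart for Ifng. In all 3 genes both N4 arrays were higher than either non-pulsed array, as in every gene that rose. Il3, a growth factor of blood cell precursors, rose by 6.03 and the leukaemia inhibitory factor gene Lif by 4.13. The non-pulsed arrays of Il3 (4.29 and 4.87) were under that threshold as well. Il17a, the cytokine of IL-17-producing T cells, had 6.25 and 10.81 on the non-pulsed arrays and 13.29 and 12.68 on the N4 arrays, so that the change was 7.05 between the arrays numbered 1 and 1.86 between those numbered 2. The growth factor gene Csf2 (GM-CSF) moved up between the arrays numbered 1 (3.49) and down between those numbered 2 (-0.69) and did not pass. Falls were -3.94 for Il10, -3.24 for Ltb, -2.34 for Il16, -2.15 for Il18, -2.08 for Il12a, -1.87 for Il1b and -1.72 for Tnf, several of which myeloid cells also make. Leaving out 1 array moved the limma adjusted p to 0.0575 for Il17a without the first N4 array. Csf2 (2.87 without the second non-pulsed array) passed the limma test. Il17a (2.17 without the first non-pulsed array and 6.74 without the second non-pulsed array) kept the call with a change of other size.

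Among chemokines, the small proteins that attract leukocytes, Xcl1 was the gene that rose, 1 of 21, and 11 fell. Xcl1, which draws in cross-presenting dendritic cells, had 8.57 and 10.58 on the non-pulsed arrays and 12.91 and 11.58 on the N4 arrays. The inflammatory chemokine genes Ccl3 and Ccl4 were high on every array and did not change beyond the test: Ccl3 had 13.62 and 13.15 on the non-pulsed arrays and 13.50 and 12.85 on the N4 arrays and Ccl4 had 13.28 and 12.51 on the non-pulsed arrays and 13.27 and 12.72 on the N4 arrays. The groups overlapped in both genes. Ccl5, a chemokine of memory cells, fell by 1.75 from 13.01 and 13.28 to 11.27 and 11.51. The deepest falls were -5.17 for Ccl6, -4.65 for Pf4 and -2.87 for Cxcl16, and Ccl6 and Pf4 were also in the lists of myeloid cells and platelets. The chemokine rises numbered 3 without the second non-pulsed array and 2 without the second N4 array, after quantile normalization or under median centring, and the falls numbered 6 without the second non-pulsed array or the first N4 array. Xcl1 (1.67 without the first non-pulsed array) kept the call with a change of other size.

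**Figure D3:**
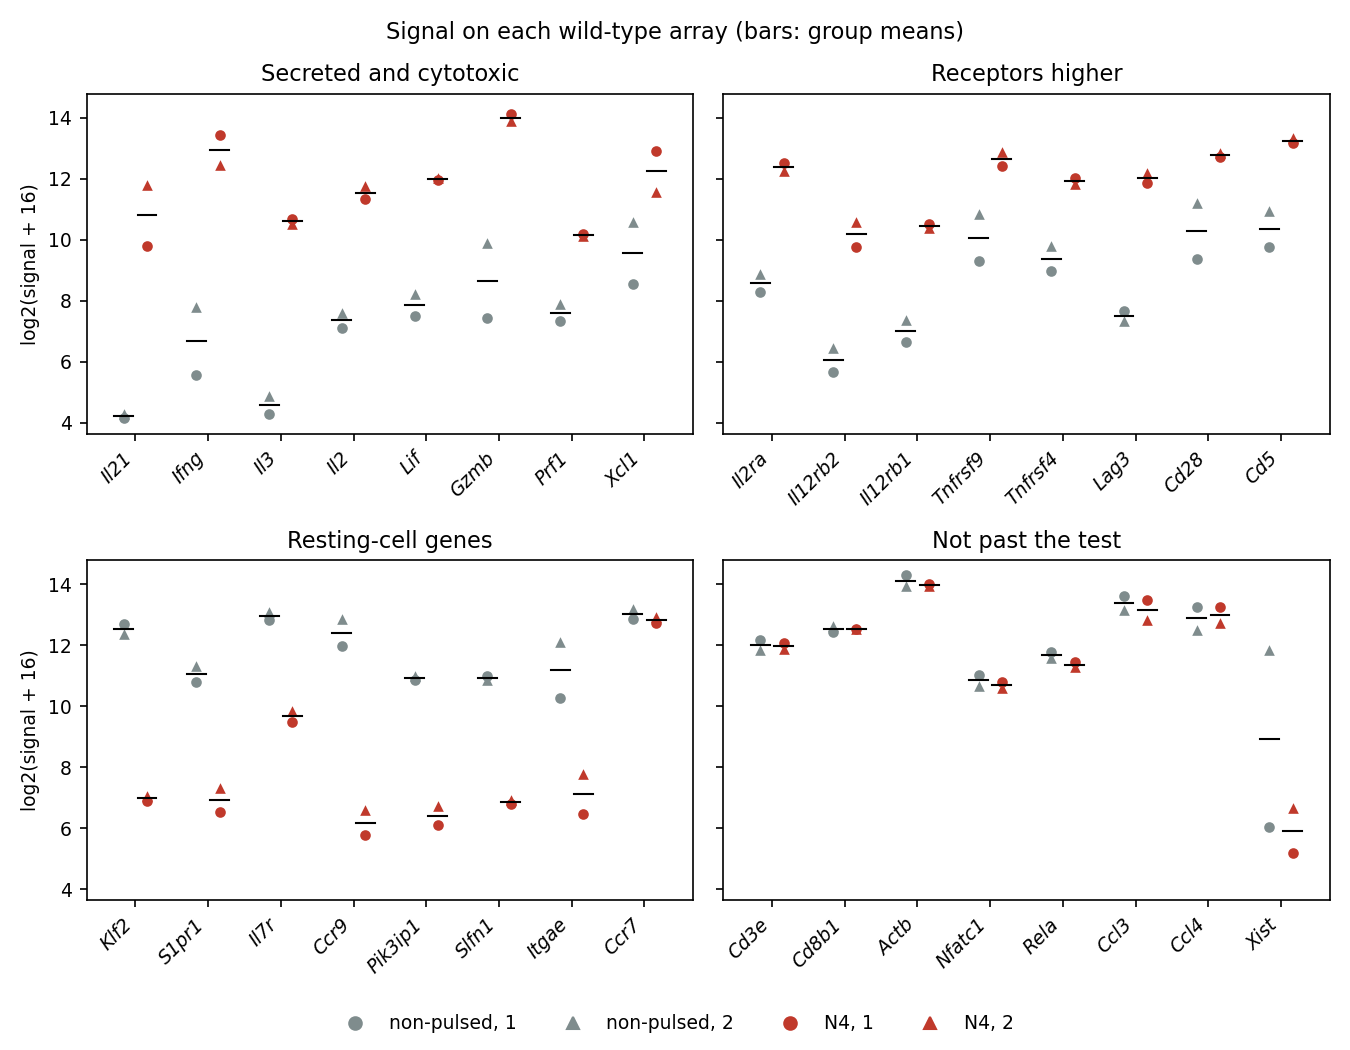
Signal of 32 genes on each wild-type array as log2(signal + 16), non-pulsed in grey and N4 in red, with circles for replicate 1, triangles for replicate 2 and bars for group means; panels hold secreted and cytotoxic genes, receptors that rose, resting-cell genes and genes not past the test. Each gene is to be read against itself, since probe sets differ in brightness, and Xist is high on the second non-pulsed array only.

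Of 23 measured genes of the killing machinery 9 rose and 5 fell (median -0.35, and 0.05 under median centring). Gzmb, the granzyme that cleaves caspases in the target cell, had 7.43 and 9.89 on the non-pulsed arrays and 14.11 and 13.91 on the N4 arrays, a change of 5.35 (SE 0.62, limma adjusted p 0.000277). The pore-forming protein gene Prf1 had 7.33 and 7.89 on the non-pulsed arrays and 10.20 and 10.11 on the N4 arrays. The N4 arrays were above both non-pulsed arrays in each, as in every gene that rose. Other rises were 2.25 for Fasl, 1.99 for Serpinb6b, 1.91 for Gzmc, 1.81 for Rab27a, 1.77 for Nkg7, 1.77 for Cst7 and 1.68 for Serpinb9. Fasl encodes the ligand of a death receptor, Rab27a docks granules at the membrane and Serpinb9 encodes an inhibitor that protects the cell from granzyme B. The granzyme gene Gzmk fell by 3.50, from 7.59 and 8.05 to 4.27 and 4.37. The protease genes Ctsd and Ctsw changed by -2.21 and -1.71. Gzma had 9.01 and 9.48 on the non-pulsed arrays and 7.04 and 10.57 on the N4 arrays, with the N4 arrays on either side of the non-pulsed ones, and did not pass. The cytotoxic falls numbered 3 under median centring. Calls lost in limma on 7 arrays had an adjusted p of 0.0566 for Gzmc without the first non-pulsed array, and 0.0624 for Gzmc without the second N4 array. Gzmc (3.13 with offset 1 and 1.02 with offset 64), Gzmk (-2.01 with offset 64) and Prf1 (1.56 with the mean or median of probe sets) kept the call with a change of other size.

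Of 28 cytokine receptor genes 5 rose and 19 fell (median -1.24). The rises were chains of the receptors for IL-12, IL-2 and IL-15. Il12rb2, the signalling chain for IL-12, had 5.66 and 6.44 on the non-pulsed arrays and 9.75 and 10.60 on the N4 arrays. Its partner Il12rb1 rose by 3.44, Il2ra, the high-affinity chain for IL-2, by 3.81, the shared chain gene Il2rb by 1.51 and Il15ra by 1.37. Il2ra had 8.28 and 8.87 on the non-pulsed arrays and 12.52 and 12.26 on the N4 arrays, a change with SE 0.27 and limma adjusted p 3.55e-05. Il7r, which keeps resting T cells alive, had 12.84 and 13.08 on the non-pulsed arrays and 9.50 and 9.85 on the N4 arrays and fell by 3.29 (SE 0.17, limma adjusted p 1.23e-05). The 2 arrays of each group lay close together for Il7r and the groups were far apart. Further falls included the IL-18 receptor gene Il18r1 (-3.94), the IL-6 receptor gene Il6ra (-2.85), the interferon gamma receptor gene Ifngr2 (-2.00) and the TGF-beta receptor gene Tgfbr2 (-1.86). The shared beta chains of myeloid growth factor receptors, Csf2rb (-3.16) and Csf2rb2 (-3.69), fell as well. Downstream, Cish, a feedback inhibitor induced by STAT5, rose by 2.61, and Bcl6, a repressor that opposes effector fate, fell from 10.14 and 10.23 to 7.19 and 6.95, a change of -3.11. The JAK and STAT list rises numbered 2 without the second N4 array, and the falls numbered 2 under median centring. Cish (1.72 without the first non-pulsed array), Il15ra (0.84 without the first non-pulsed array) and Il2rb (0.97 without the first non-pulsed array) kept the call with a change of other size.

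Of 26 genes of the TNF superfamily 7 rose and 7 fell. The rises were 3 costimulatory receptors, 3 ligands and Tnfrsf10b (1.49), a death receptor for TRAIL. Tnfrsf9 (4-1BB) had 9.30 and 10.86 on the non-pulsed arrays and 12.42 and 12.88 on the N4 arrays, Tnfrsf4 (OX40) rose by 2.55, and Tnfrsf18 (GITR) by 2.01. Among ligands, Tnfsf11 (RANKL), Tnfsf14 (LIGHT) and Cd40lg rose by 2.71, 1.84 and 1.56. The falls included -3.44 for Tnfrsf13b, -2.55 for Ltbr, -2.23 for Cd40, -2.16 for Tnfrsf1b, -1.42 for Traf5 and -1.29 for Tnfrsf1a. Of those, Tnfrsf13b and Cd40 are known from B cells and antigen-presenting cells. The limma adjusted p became 0.0758 for Tnfrsf10b without the first non-pulsed array, and 0.0584 for Tnfrsf10b without the second N4 array. Cd40lg (0.81 with offset 64), Tnfrsf10b (0.78 with offset 64), Tnfrsf9 (3.99 with the median of probe sets), Tnfsf11 (1.31 without the first non-pulsed array and 4.11 without the second non-pulsed array) and Tnfsf14 (1.04 without the first non-pulsed array) kept the call with a change of other size.

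The list of inhibitory receptors and their partners, which also holds ligands and costimulatory receptors, gave 6 rises and 7 falls among 21 genes. Lag3, an inhibitory receptor that binds MHC class II, had 7.68 and 7.35 on the non-pulsed arrays and 11.86 and 12.19 on the N4 arrays, with a change of 4.52 (SE 0.19, limma adjusted p 8.41e-06), and neither group's arrays were more than 1 log2 unit apart. Ctla4, which competes with CD28 for its ligands, rose by 2.78. Crtam, Cd160 and the costimulatory receptor gene Icos rose by 2.53, 2.21 and 1.63. Pdcd1, which encodes PD-1, had 9.08 and 8.71 on the non-pulsed arrays and 10.60 and 9.47 on the N4 arrays and missed the threshold, with a limma adjusted p of 0.051, or 0.003 with the replicate block. Falls included -4.55 for Cd200r1, -2.11 for Lair1, -1.62 for Cd274 and -1.56 for Cd86, of which Cd274 and Cd86 encode ligands. In limma fits on 7 arrays the adjusted p was 0.0503 for Crtam without the first N4 array. Pdcd1 (1.41 after quantile normalization, 1.54 under median centring, 1.14 with the 4 wild-type arrays alone and 1.71 without the second N4 array) passed the limma test. Cd160 (1.39 with the median of probe sets, 1.07 without the first non-pulsed array and 3.35 without the second non-pulsed array), Cd200r1 (-2.97 with offset 64) and Crtam (1.52 without the first non-pulsed array) kept the call with a change of other size.

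Signalling genes next to the antigen receptor changed unevenly. Of 29 genes 10 rose and 3 fell. Cd5, a damper of receptor signalling whose level follows its strength, had 9.75 and 10.95 on the non-pulsed arrays and 13.16 and 13.34 on the N4 arrays and rose by 2.90 (SE 0.32, limma adjusted p 0.000212). The related receptor gene Cd6 rose by 2.47, the costimulatory receptor gene Cd28 by 2.47 and the kinase gene Zap70 by 1.56. The CD3 chain genes Cd3e, Cd3g and Cd3d lay between -0.10 and -0.04 and did not pass. Sla2, an adaptor that restrains receptor signalling, fell by 1.33. In the ERK feedback list, Spry1 had 7.65 and 7.73 on the non-pulsed arrays and 11.61 and 11.85 on the N4 arrays, a change of 4.04 (SE 0.14, limma adjusted p 6.28e-06), and the ERK phosphatase gene Dusp5 rose by 2.36. The phosphatase genes Dusp1 and Dusp10 fell by 2.18 and 1.58, and the Ras exchange factor gene Rasgrp2 by 1.27. The ERK feedback list of 17 genes held 3 rises and 5 falls, so 47.1% were called, beside 40.7% of all genes tested. The antigen receptor falls numbered 1 under median centring. Zap70 (0.83 with the mean of probe sets and 0.80 with the median of probe sets) missed the limma threshold. Cd28 (1.54 without the first non-pulsed array) kept the call with a change of other size.

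No calcium or NFAT gene of 26 rose past the limma test, and 7 fell. At an unadjusted p under 0.05 there were 2 rises and 10 falls. With the replicate block 2 rose and 8 fell. The largest falls were the calcineurin catalytic gene Ppp3ca, from 11.29 and 10.78 to 8.59 and 7.99, the calcium channel gene Orai2 (-2.18) and the inositol trisphosphate receptor gene Itpr2 (-2.18). Nfatc1 (-0.15) and Nfatc2 (-0.07), which encode NFAT proteins, did not pass. The median of the list was -0.33 and turned to 0.07 under median centring. Among 18 genes of phosphoinositide and diacylglycerol control 8 fell and 1, Akt2 (0.60), rose. With the replicate block 4 rose and 10 fell. The inhibitor of PI3 kinase Pik3ip1 had 10.87 and 11.01 on the non-pulsed arrays and 6.11 and 6.73 on the N4 arrays and fell by 4.52. Sgk1, a kinase below PI3 kinase, fell from 12.17 and 12.20 to 8.20 and 8.08, and Tsc22d3 (GILZ), a target of FOXO factors and glucocorticoids, fell by 3.85. All 3 had N4 arrays more than 3 log2 units below the non-pulsed ones. The calcium and NFAT rises numbered 2 without the second non-pulsed array, with the replicate block or under median centring, and the falls numbered 4 without the first non-pulsed array and 3 under median centring. The phosphoinositide rises numbered 0 without the second non-pulsed array or the first N4 array, 2 without the second N4 array and 4 with the replicate block. Leaving out 1 array moved the limma adjusted p to 0.0596 for Akt2 without the second non-pulsed array, and 0.0736 for Akt2 without the first N4 array. Itpr2 (-1.36 with the mean of probe sets and -1.42 with the median of probe sets) and Tsc22d3 (-2.03 with the mean of probe sets and -2.00 with the median of probe sets) kept the call with a change of other size.

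Of 22 transcription factor genes of the early receptor response 6 rose and 3 fell: the orphan receptor genes Nr4a2 and Nr4a3 rose by 4.16 and 2.29, the cyclic AMP regulator Crem by 2.77, the AP-1 genes Fosl2 and Fosl1 by 1.79 and 1.65 and Myc by 0.71. Nr4a2 had 6.67 and 7.88 on the non-pulsed arrays and 11.11 and 11.76 on the N4 arrays. Egr3, another early response gene, ran the other way, with 12.17 and 12.07 on the non-pulsed arrays and 9.98 and 9.38 on the N4 arrays. Egr2 (0.23), Fos (-0.60) and Nr4a1 (0.54) did not pass, although Nr4a1 had a limma adjusted p of 0.0277 with the replicate block. Of 37 factors that set effector fate 4 rose and 13 fell, with a median of -0.28 (0.13 under median centring). Tbx21 (T-bet), the driver of Ifng and of effector killers, had 8.61 and 9.27 on the non-pulsed arrays and 11.72 and 11.38 on the N4 arrays and rose by 2.61. Irf4, which scales with receptor signal, rose by 1.54, Bhlhe40 by 1.13 and Hif1a by 0.77. The falls included -2.94 for Maf, -2.82 for Prdm1, -2.25 for Zeb2, -2.21 for Gata3, -2.11 for Myb and -1.90 for Runx1. Prdm1 (Blimp-1), a factor of terminal effector cells and of plasma cells, had 10.53 and 9.49 on the non-pulsed arrays and 7.40 and 6.97 on the N4 arrays. Eomes, the relative of Tbx21, had 7.64 and 9.67 on the non-pulsed arrays and 8.49 and 8.34 on the N4 arrays and did not pass. The effector factor rises numbered 7 under median centring, and the falls numbered 6 under median centring. Calls lost in limma on 7 arrays had an adjusted p of 0.0905 for Irf4 without the second non-pulsed array, and 0.0698 for Irf4 without the first N4 array. Eomes (-1.25 without the first non-pulsed array), Fos (-1.46 without the second N4 array) and Nr4a1 (0.94 under median centring and 0.76 without the first N4 array) passed the limma test. Crem (1.34 with the mean of probe sets and 1.43 with the median of probe sets), Egr3 (-1.56 with the mean or median of probe sets), Gata3 (-1.46 without the second non-pulsed array) and Hif1a (1.32 with the mean of probe sets and 1.48 with the median of probe sets) kept the call with a change of other size.

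Of 29 receptors for chemokines, sphingosine phosphate and other lipids 14 fell and 4 rose (median -0.89). Ccr9, the receptor that leads T cells to the small intestine, had 11.97 and 12.88 on the non-pulsed arrays and 5.78 and 6.60 on the N4 arrays and fell by 6.23 (SE 0.35, limma adjusted p 1.46e-05). S1pr1, through which lymphocytes leave lymph nodes, had 10.80 and 11.32 on the non-pulsed arrays and 6.55 and 7.33 on the N4 arrays and fell by 4.12. For both genes every N4 array lay more than 3 log2 units under every non-pulsed array. The bone marrow homing receptor gene Cxcr4 fell by 3.09. Ccr7, the lymph node homing receptor, was high on all arrays, with 12.86 and 13.19 on the non-pulsed arrays and 12.73 and 12.94 on the N4 arrays, and its groups overlapped. Gpr25, an orphan receptor, was the largest rise of the list at 4.32, followed by the proton-sensing receptor gene Gpr65 at 1.67.

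Of 30 adhesion genes 18 fell and 2 rose (median -0.72). Itgae, the alpha E chain (CD103) that binds epithelial E-cadherin, had 10.28 and 12.11 on the non-pulsed arrays and 6.48 and 7.78 on the N4 arrays. Itga4 fell by 3.37 and Itgb7 by 1.76, the chains of the gut-homing integrin. Cd44, commonly used as an activation marker, was 13.82 and 13.32 on the non-pulsed and 12.98 and 12.09 on the N4 arrays and fell by 1.03 (limma adjusted p 0.0377). The rises were Thy1 (0.75) and Cd82 (0.52). Enzymes that build surface glycans gave 18 falls and 4 rises among 34 genes. The sialyltransferase genes St8sia6, St6gal1 and St8sia4 fell by 4.92, 2.35 and 1.76. The rises were 2.19 for Galnt3, 1.43 for St6galnac4, 1.35 for St3gal4 and 1.01 for Chst11. Chst2, a sulphotransferase gene outside that list, was among the 40 largest rises, with 5.21 and 5.74 on the non-pulsed arrays and 9.91 and 8.95 on the N4 arrays. The adhesion rises numbered 1 without the first non-pulsed array or the second non-pulsed array, 0 without the first N4 array and 4 with the replicate block, and the falls numbered 9 under median centring. The glycan enzyme falls numbered 9 under median centring. The limma adjusted p became 0.184 for Cd44 and 0.165 for Cd82 without the first non-pulsed array, 0.0526 for Cd82 without the second non-pulsed array, 0.213 for Cd82 and 0.0569 for Thy1 without the first N4 array, and 0.206 for Cd44 without the second N4 array. Cd44 (-0.63 under median centring and -1.03 without the filter or without the trend) and Cd82 (0.35 after quantile normalization, 0.92 under median centring, 0.52 without the filter or without the trend and 0.28 with the mean or median of probe sets) missed the limma threshold. Chst2 (2.07 with the mean or median of probe sets) kept the call with a change of other size.

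The cytoskeleton gave 14 falls and 5 rises among 43 genes. Bulk actin and tubulin genes did not pass, among them Actb with a change of -0.14 and the tubulin gene Tubb5 with a change of 0.19. The myosin gene Myo1f fell by 4.49, and the annexin gene Anxa1 fell by 4.41 from 12.56 and 12.29 to 8.12 and 7.91. The intermediate filament gene Vim fell by 2.02, whereas the lamin gene Lmnb1 rose by 0.68 and Septin11 by 1.29. Myeloid cells also express Myo1f, Anxa1 and Vim. The cytoskeleton rises numbered 3 without the first non-pulsed array or the second N4 array and 2 without the first N4 array, and the falls numbered 5 under median centring. In limma fits on 7 arrays the adjusted p was 0.0528 for Lmnb1 without the first N4 array. Lmnb1 (1.04 with the mean or median of probe sets) kept the call with a change of other size.

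Of 52 genes of rRNA synthesis and ribosome assembly 46 rose and none fell, with a median of 0.91 beside -0.10 for all genes. At an unadjusted limma p under 0.05 none of the ribosome, synthetase, nuclear pore or replication lists below held a fall either. Nolc1, a nucleolar assembly factor, had 11.60 and 11.45 on the non-pulsed arrays and 13.05 and 12.97 on the N4 arrays, and the RNA polymerase I subunit gene Polr1b had 9.90 and 9.88 on the non-pulsed arrays and 11.25 and 11.20 on the N4 arrays. In both the arrays of a group lay within 0.2 log2 units. Wdr12, of the complex that matures the large subunit, rose by 1.23. The abundant nucleolar genes Npm1 (0.06) and Ncl (0.33) did not pass, and Ncl had a limma adjusted p of 0.00603 with the replicate block. Of 40 cytosolic ribosomal protein genes 1 rose and none fell, with a median of -0.09 (0.31 under median centring). Rpl14 was the rise, from 9.86 and 9.97 to 10.72 and 10.70. Signals of many of these genes were high on every array, as for Rpl41 at 14.21 and 13.85 on the non-pulsed and 13.85 and 13.90 on the N4 arrays. Ribosomal proteins of the mitochondrion gave 49 rises and no fall among 71 genes (median 0.63), among them 1.44 for Mrps6, 1.13 for Mrps30 and 1.13 for Mrpl50. The mitochondrial rises numbered 26 without the second non-pulsed array and 23 without the first N4 array. Ncl (0.32 after quantile normalization, 0.81 with the mean of probe sets and 0.80 with the median of probe sets) passed the limma test. Wdr12 (0.74 with the mean or median of probe sets) kept the call with a change of other size.

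**Figure D4:**
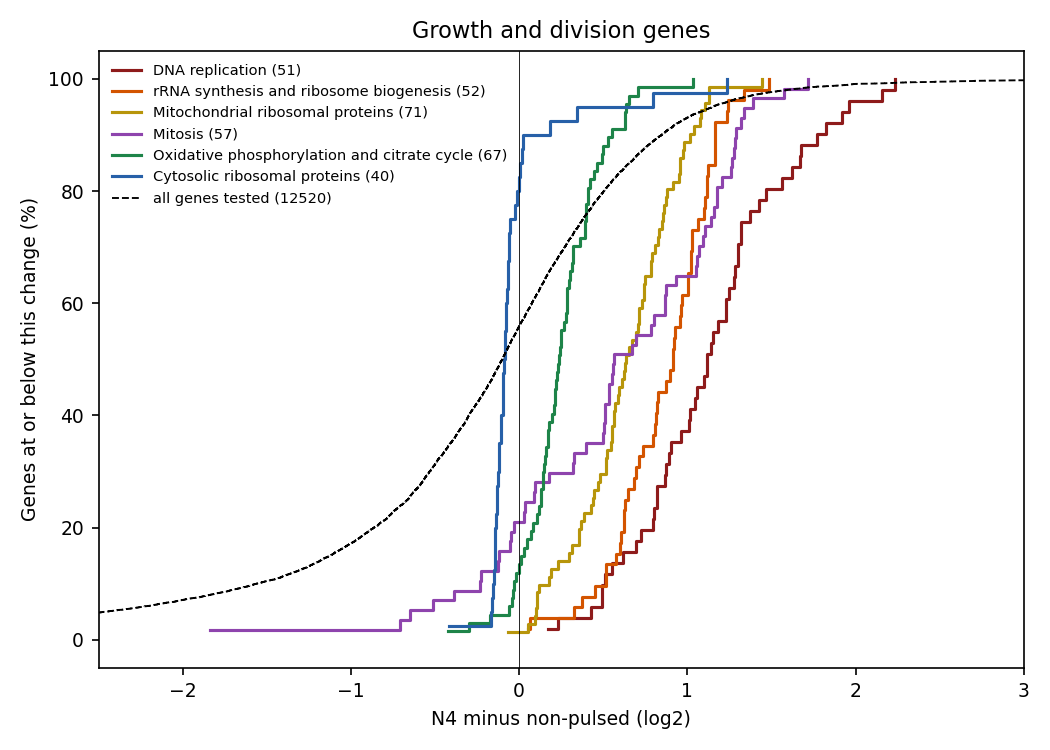
Cumulative share of genes (vertical axis, percent) at or below a given change with N4 (horizontal axis, log2) for 6 gene lists and for all 12520 genes tested (dashed). The curves of DNA replication, ribosome biogenesis and mitochondrial ribosomal proteins lie to the right of the dashed curve over most of their length, while that of the cytosolic ribosomal proteins rises steeply near 0.

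Of 21 aminoacyl-tRNA synthetase genes, which charge tRNAs, 17 rose and none fell (median 0.82). Aimp2, a scaffold protein of the synthetase complex, rose by 1.27. Of 41 translation factors 20 rose (median 0.39), led by the exchange factor subunit Eif2b3 (1.24), and Eif4e, the cap-binding protein gene, rose by 0.84. Pdcd4, an inhibitor of the helicase eIF4A, fell by 1.44 and was the 1 fall. The nuclear pore and its carriers gave 34 rises of 45 (median 0.86), with 1.45 for Nup133, 1.41 for Nup107, 1.39 for Nup37 and 1.35 for Nup155 at the top. Chaperones rose in 22 of 37 genes and the proteasome in 18 of 39. Within the proteasome the activator Psme3 rose by 1.14. The translation factor rises numbered 10 without the second non-pulsed array and 9 without the first N4 array, and the falls numbered 2 with the replicate block and 3 after quantile normalization. The chaperone rises numbered 14 without the second non-pulsed array or under median centring and 13 without the first N4 array, and the falls numbered 0 under median centring. The proteasome rises numbered 11 without the second non-pulsed array, 7 without the first N4 array, 30 with the replicate block and 9 under median centring, and the falls numbered 0 without the first non-pulsed array or the second N4 array or under median centring. Leaving out 1 array moved the limma adjusted p to 0.0541 for Eif4e without the first N4 array. Nup133 (0.92 with the mean of probe sets and 0.85 with the median of probe sets) kept the call with a change of other size.

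Of 36 genes of nucleotide, serine, one-carbon and polyamine synthesis 30 rose and 2 fell (median 1.12). Dctd, which supplies dUMP, had 8.81 and 8.64 on the non-pulsed arrays and 11.01 and 10.62 on the N4 arrays, and Umps, the last enzyme of UMP synthesis, rose by 1.81. The serine enzyme gene Psat1 and the folate enzyme genes Shmt1, Mthfd1 and Mthfd2 rose by 1.64, 1.58, 1.47 and 1.38, and Tyms, which makes thymidylate, by 1.37. Of 28 genes of glycolysis and the pentose phosphate path 13 rose and 4 fell. Hk2, the first step of glycolysis, had 11.10 and 10.89 on the non-pulsed arrays and 12.45 and 12.73 on the N4 arrays. Tpi1, the triose phosphate isomerase gene, rose by 1.34, while Pdk2, a kinase that holds back pyruvate oxidation, fell by 1.98. The glucose transporter gene Slc2a1 had 11.11 and 11.52 on the non-pulsed arrays and 11.82 and 13.11 on the N4 arrays and did not pass (limma adjusted p 0.0886, or 0.00578 with the replicate block). The N4 arrays lay more than 1 log2 unit apart. The nucleotide synthesis falls numbered 1 without the first non-pulsed array or the second N4 array or under median centring. The glycolysis rises numbered 8 without the second non-pulsed array, and the falls numbered 1 without the first non-pulsed array or under median centring and 2 without the second non-pulsed array, the first N4 array or the second N4 array. Calls lost in limma on 7 arrays had an adjusted p of 0.0561 for Tyms without the second N4 array. Slc2a1 (1.55 under median centring and 1.79 without the first N4 array) passed the limma test. Pdk2 (-1.21 with offset 64) and Umps (1.17 with the median of probe sets) kept the call with a change of other size.

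Respiratory chain and citrate cycle genes gave 13 rises and 1 fall among 67 (median 0.23), so 20.9% were called, beside 40.7% of all genes tested. The respiratory rises numbered 4 without the second non-pulsed array, 5 without the first N4 array, 8 without the second N4 array, 27 with the replicate block and 6 under median centring, and the falls numbered 0 without any 1 of the 4 arrays or under median centring. Of 34 sterol and fatty acid genes 9 rose and 3 fell, so 35.3% were called, beside 40.7% of all genes tested. The sterol enzymes Cyp51 and Idi1 rose by 1.05 and 1.03, the cholesterol exporters Abca1 and Abcg1 fell by 3.73 and 1.86, and the desaturase gene Scd1 changed by -3.82. The sterol and fatty acid rises numbered 16 with the replicate block. Of 37 transporter genes 16 rose and 7 fell. The nucleoside carrier gene Slc29a1 rose by 1.90, the zinc carrier gene Slc39a10 by 1.54 and the leucine carrier gene Slc7a5 by 1.30. The cystine carrier gene Slc7a11 and the iron exporter gene Slc40a1 each fell by 2.92. Redox genes gave 16 falls and 3 rises among 36, the falls including Hmox1 (haem breakdown, -3.91), Txnip (thioredoxin inhibitor, -3.50) and Nqo1 (-2.11). The 3 rises, 0.72 for Prdx3, 0.67 for Txn2 and 0.56 for Gsr, comprise the mitochondrial proteins Prdx3 and Txn2 and the glutathione reductase gene Gsr. The transporter falls numbered 4 without the first non-pulsed array or under median centring. The redox rises numbered 1 without the first N4 array and 5 with the replicate block, and the falls numbered 10 under median centring. The limma adjusted p became 0.256 for Gsr without the first non-pulsed array, 0.119 for Txn2 without the second non-pulsed array, 0.0565 for Prdx3 and 0.139 for Txn2 without the first N4 array, and 0.248 for Gsr without the second N4 array. Gsr (0.56 with offset 1, without the filter, with the 4 wild-type arrays alone or without the trend and 0.49 after quantile normalization) and Txn2 (0.56 with the median of probe sets) missed the limma threshold.

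DNA replication had the largest share of rises among the 54 lists. Of 51 measured genes 48 rose and none fell, with a median of 1.12. Cdc6, which loads the replicative helicase at origins, had 9.84 and 9.80 on the non-pulsed arrays and 12.03 and 12.09 on the N4 arrays and a change of 2.23 (SE 0.13, limma adjusted p 1.52e-05). Cdc45, part of the active helicase, had 9.06 and 8.46 on the non-pulsed arrays and 10.97 and 10.86 on the N4 arrays, and Orc1 of the origin recognition complex and Gins1 rose by 1.96 and 1.92. The arrays of each group were close together and the groups well apart. The 6 subunits of the MCM helicase, Mcm2 to Mcm7, rose between 0.49 (Mcm5) and 1.18 (Mcm2). The 3 genes that did not pass had changes of 0.43 for Pcna, 0.23 for Orc5 and 0.17 for Rfc2. Pcna was already at 13.69 and 13.38 on the non-pulsed arrays and passed with the replicate block (limma adjusted p 0.0077). Upstream of replication, 16 of 35 cell cycle entry genes rose and 6 fell. Ccne2, a cyclin of the G1 to S transition, had 9.09 and 9.37 on the non-pulsed arrays and 11.62 and 11.80 on the N4 arrays, and E2f1, Skp2 and Cdc25a rose by 1.33, 1.26 and 1.12. The inhibitor gene Cdkn1b (p27) fell by 1.75 and the quiescence cyclin gene Ccng2 by 2.29. The cycle entry rises numbered 10 without the second non-pulsed array and 9 without the first N4 array, and the falls numbered 2 without the first non-pulsed array or the first N4 array, 3 without the second non-pulsed array or under median centring and 10 with the replicate block. In limma fits on 7 arrays the adjusted p was 0.0643 for Ccng2 and 0.0555 for Cdkn1b without the first non-pulsed array, 0.109 for Ccng2, 0.124 for Cdkn1b and 0.12 for Mcm5 without the second non-pulsed array, 0.156 for Ccng2, 0.149 for Cdkn1b and 0.114 for Mcm5 without the first N4 array, and 0.0596 for Mcm5 without the second N4 array. Ccng2 (-2.29 without the trend), Cdkn1b (-1.89 with the mean or median of probe sets and -1.75 without the trend) and Mcm5 (0.89 under median centring and 0.49 without the trend) missed the limma threshold. Pcna (0.37 after quantile normalization and 0.59 without the first non-pulsed array) and Rfc2 (0.71 with the median of probe sets) passed it. Cdc25a (0.70 with the mean of probe sets and 0.72 without the first non-pulsed array), Mcm5 (1.01 with the mean of probe sets and 1.04 with the median of probe sets), Mcm7 (1.14 with the median of probe sets) and Orc1 (1.28 with the mean or median of probe sets) kept the call with a change of other size.

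Replication promoters are shown for the E2F letters. TTTGGCGC or TTTCCCGC, on either strand, occurred in 15 of 42 replication genes with a promoter (35.7%), against 3.43% of all tested genes and 1.56% of all promoter windows, 6.06% of genes that rose and 2.11% of those that fell. When the 50 bases after the start were left out, the share in the replication list was 16.7%. The stretches below, from GRCm38.p6 and printed 5′ to 3′ on the gene's strand with the match in capitals, lie at chr11:98907973-98908060 (plus strand) for Cdc6 and chrX:93632246-93632333 (minus strand) for Pola1, which encodes the catalytic subunit of polymerase alpha and rose by 1.37.
Cdc6: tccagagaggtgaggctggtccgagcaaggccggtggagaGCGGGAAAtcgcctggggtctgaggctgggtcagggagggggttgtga
Pola1: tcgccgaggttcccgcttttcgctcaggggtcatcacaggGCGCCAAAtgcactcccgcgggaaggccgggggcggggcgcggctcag
Other motifs were searched in other lists: the ETS letters CCGGAAGT in 17.7% of mitochondrial ribosomal protein promoters against 8.74% of all tested, the AP-1 letters TGANTCA in 5 of 18 cytokine promoters (27.8%) against 6.44%, and the E-box CACGTG in 17.4% of ribosome biogenesis promoters against 11.4%. The E-box share was 2.17% without the 50 bases after the start. The NF-kB letters GGGACTTTC or GGGAATTCC occurred in 3 of 20 promoters of the NF-kB list (15.0%) against 0.799% of all tested, and the sterol element TCACNCCAC in 3.85% of sterol and fatty acid promoters against 1.44%. Over all promoter windows the shares were 3.89% for ETS, 7.81% for AP-1, 7.15% for the E-box, 0.578% for NF-kB and 1.24% for the sterol element. In genes that rose and genes that fell they were 12.1% and 5.65% for ETS and 4.6% and 8.73% for AP-1. The same shares were 13.1% and 11.1% for the E-box, 0.617% and 1.01% for NF-kB, and 1.23% and 1.52% for the sterol element. ETS letters occurred in 25.7% of cytosolic ribosomal protein promoters, and AP-1 letters in 25.7% of interferon-stimulated and 25.0% of NF-kB list promoters. Among the 6 cytokine genes that rose, Il17a and Lif held an AP-1 match, and the other matches lay in cytokine genes that did not rise. The match of Lif is shown, at chr11:4257318-4257386 (plus strand).
Lif: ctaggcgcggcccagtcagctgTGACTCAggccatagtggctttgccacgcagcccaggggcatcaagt

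Of 57 mitosis genes 28 rose and 1 fell (median 0.56), and whether this list differs from the replication list was not tested. The kinase genes Melk, Cdk1, Bub1 and Aurkb rose by 1.72, 1.29, 1.28 and 1.21. The 5 lowest values were those of Ccnb2, Cenpa, Cdc25b, Ube2c and Cdc20. Ccnb2, a mitotic cyclin, fell from 10.68 and 9.92 to 9.05 and 7.87. Cdc20 (-0.39), Ube2c (-0.51), Cdc25b (-0.65) and Cenpa (-0.71) did not pass, and Cdc25b and Cenpa had limma adjusted p-values of 0.00347 and 0.00646 with the replicate block. Of 42 genes of DNA repair and checkpoints 23 rose and 7 fell. The rises were led by 2.13 for Exo1, 1.95 for Bard1, 1.89 for Fancb and 1.88 for Rad54b, genes of recombination and crosslink repair. The largest falls were -2.72 for Gadd45a, -2.27 for Trp53inp1 and -1.49 for Bbc3, genes of the p53 and stress responses. The repair falls numbered 4 without the second non-pulsed array and 3 under median centring. The mitosis falls numbered 0 without the first non-pulsed array or under median centring and 3 without the first N4 array or with the replicate block. Leaving out 1 array moved the limma adjusted p to 0.052 for Ccnb2 without the first non-pulsed array, and 0.0529 for Bard1 without the first N4 array. Ccnb2 (-1.44 under median centring) missed the limma threshold. Cdc25b (-0.95 without the first N4 array) and Cenpa (-0.78 with the mean or median of probe sets and -1.11 without the first N4 array) passed it. Trp53inp1 (-1.20 with the mean or median of probe sets) kept the call with a change of other size.

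Of 43 genes of the resting state 27 fell and 1 rose (median -0.96). Klf2, the factor that keeps T cells quiescent and drives S1pr1, had 12.71 and 12.36 on the non-pulsed arrays and 6.90 and 7.07 on the N4 arrays and fell by 5.55 (SE 0.22, limma adjusted p 6.28e-06). Tmem71, a membrane protein gene, had 12.09 and 12.16 on the non-pulsed arrays and 7.05 and 7.02 on the N4 arrays and fell by 5.09. The schlafen gene Slfn1, named for its growth-restraining effect in T cells, fell from 11.01 and 10.85 to 6.79 and 6.94. In these 3 genes the arrays of a group were within 0.4 log2 units while the groups were more than 3 apart. The rise was Satb1 (0.93), a chromatin organiser. Of the GIMAP, schlafen and RGS list 17 of 32 fell and 2 rose, Rgs1 by 1.96 and Rgs16 by 1.68. All 8 measured GIMAP genes, GTPase genes of lymphocyte survival, changed by less than 1 log2 unit. Dntt, terminal transferase, and Cd7 were among the 40 largest falls of the whole comparison, with changes of -5.26 and -6.59. The resting-state rises numbered 0 without the first non-pulsed array or the second N4 array and 2 without the first N4 array, with the replicate block or under median centring, and the falls numbered 17 under median centring. The GIMAP, schlafen and RGS rises numbered 4 without the first N4 array, after quantile normalization or under median centring, and the falls numbered 11 without the second non-pulsed array and 7 under median centring. Calls lost in limma on 7 arrays had an adjusted p of 0.115 for Satb1 without the first non-pulsed array, and 0.118 for Satb1 without the second N4 array. Satb1 (0.76 after quantile normalization, 0.58 with the mean of probe sets and 0.48 with the median of probe sets) missed the limma threshold. Rgs1 (1.10 without the first non-pulsed array) kept the call with a change of other size.

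**Figure D5:**
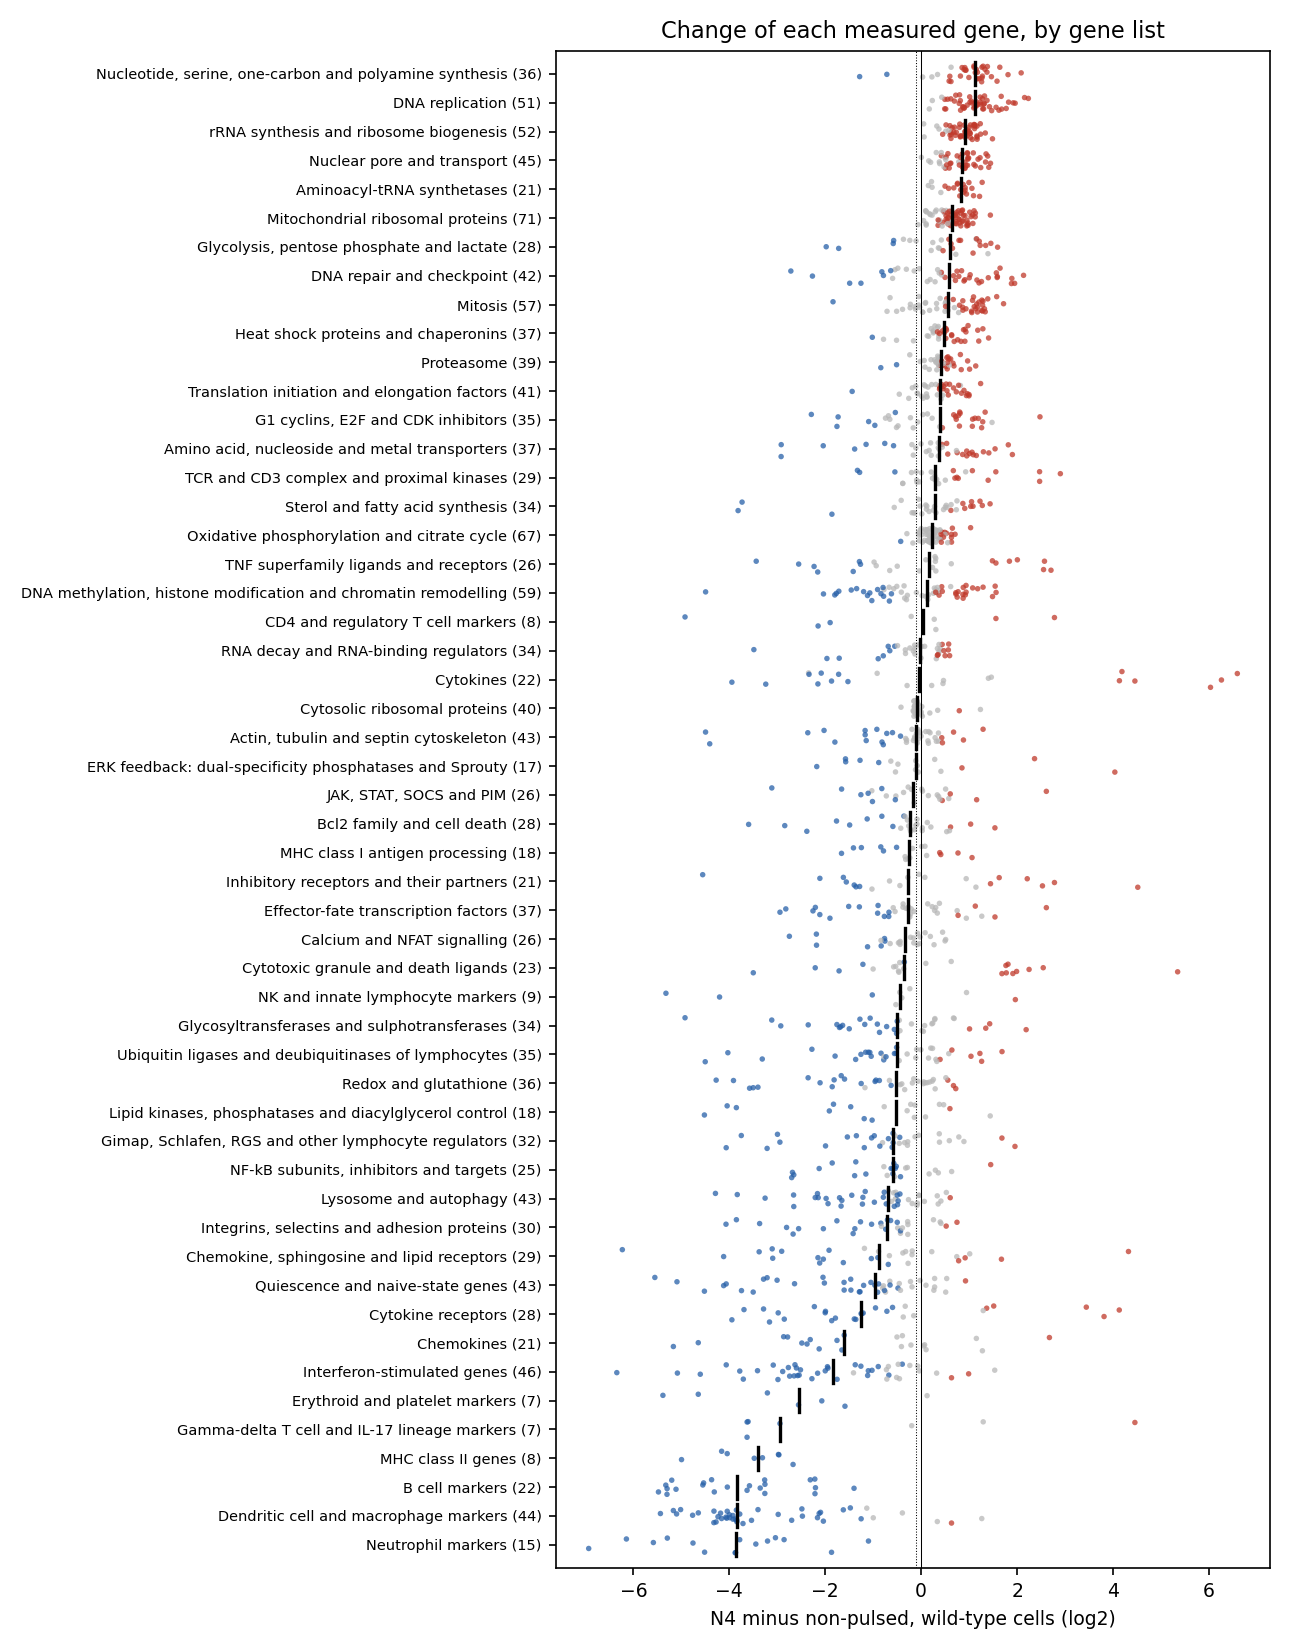
Change with N4 (horizontal axis, log2) of each measured gene by gene list, ordered by list median (black bar), with the number of measured genes in brackets. The lists of sex-linked transcripts and of early receptor response factors are not shown. Red marks genes higher, blue lower and grey not past the test, and the dotted line is the median of all genes, -0.10. Synthesis, replication and ribosome assembly lists stand at the top, and interferon-stimulated genes and the markers of B cells, neutrophils, dendritic cells and MHC class II at the bottom.

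Cell death genes of the Bcl-2 and caspase families gave 9 falls and 3 rises among 28. The BH3-only genes Bmf and Bbc3 fell by 2.84 and 1.49, and the BH3-only gene Bik rose by 1.54. Bcl2l1, which encodes the survival protein Bcl-xL, rose by 0.61. Bcl2l11 (0.02) and Bcl2 (0.53) did not pass, and Bcl2 had a limma adjusted p of 0.0398 with the replicate block. The inflammatory caspase genes Casp1 and Casp4 fell by 3.60 and 2.38. The cell death rises numbered 1 without the second non-pulsed array and 5 with the replicate block or under median centring, and the falls numbered 5 under median centring. The limma adjusted p became 0.115 for Bcl2l1 without the first non-pulsed array, 0.0815 for Bcl2l1 without the second non-pulsed array, and 0.186 for Bcl2l1 without the first N4 array. Bcl2l1 (0.50 with the mean of probe sets, 0.30 with the median of probe sets and 0.61 without the trend) missed the limma threshold. Bcl2 (0.93 under median centring and 0.88 without the first N4 array) passed it.

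Chromatin regulators moved both ways, with 20 rises and 17 falls among 59. Replication-linked and repressive enzymes were among the rises: 1.56 for Uhrf1, 1.54 for Suv39h2, 1.49 for Hells, 1.29 for Dnmt3b and 0.88 for Ezh2. The falls included the deacetylase gene Hdac9, from 9.83 and 9.09 to 5.76 and 4.18, the remodeller gene Smarca2 (-1.72) and Ezh1 (-1.46), the relative of Ezh2. The chromatin falls numbered 6 under median centring. Hells (0.92 with the median of probe sets) kept the call with a change of other size.

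The deepest falls among RNA-binding genes were -3.49 for Zc3h12c, -1.96 for Zc3h12a and -1.71 for Zfp36, of which Zc3h12a (Regnase-1) and Zfp36 (tristetraprolin) speed the decay of cytokine mRNAs. Over that list of 34 genes 8 rose and 8 fell, so 47.1% were called, beside 40.7% of all genes tested. Ubiquitin ligases gave 17 falls and 6 rises among 35. Rnf128 (GRAIL), a ligase of anergic T cells, had 11.91 and 11.86 on the non-pulsed arrays and 7.66 and 7.11 on the N4 arrays and fell by 4.50, and Marchf1, which removes MHC class II from antigen-presenting cells, fell by 4.03. The ligase genes Wwp1 and Cblb, the latter a brake on costimulation, rose by 1.69 and 1.23. Of 43 lysosome and autophagy genes 26 fell and 1 rose (median -0.69). The deepest were the protease genes Ctsh (-4.29), Lgmn (-3.83) and Ctsl (-3.25), all known from antigen-presenting cells. The autophagy receptor gene Sqstm1 fell by 1.70, and the conjugation gene Atg7 (0.07) did not pass. The RNA-binding rises numbered 4 without the first non-pulsed array or after quantile normalization, 2 without the second non-pulsed array or the first N4 array or under median centring and 1 without the second N4 array, and the falls numbered 5 without the second non-pulsed array and 3 without the first N4 array or under median centring. The ubiquitin ligase falls numbered 11 without the second non-pulsed array, 10 without the first N4 array and 5 under median centring. The lysosome rises numbered 0 without the second non-pulsed array or the first N4 array, 2 without the second N4 array, 4 with the replicate block and 3 after quantile normalization, and the falls numbered 15 under median centring. Wwp1 (0.87 with the median of probe sets) and Zc3h12a (-1.28 with the mean or median of probe sets) kept the call with a change of other size.

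In the NF-kB list 15 of 25 genes fell and 1 rose (median -0.59). Rel, the gene of the c-Rel subunit, had 10.09 and 9.83 on the non-pulsed arrays and 9.82 and 9.53 on the N4 arrays and did not pass. Rela (-0.32) did not pass either, and had a limma adjusted p of 0.0228 with the replicate block. Inhibitors and targets fell, among them Nfkbiz from 13.20 and 12.97 to 11.01 and 11.46, Nfkbie (-1.36) and Tnip1 (-1.39). The rise was Malt1 (1.45), the protease of the CARMA1 complex. Dendritic cell markers counted in the list, Cd83 and Ccl22, fell by 2.70 and 2.13. Of 18 genes of MHC class I processing 6 fell and 4 rose, and the heavy chain genes H2-K1 (-0.28) and H2-D1 (-0.34) did not pass. H2-D1 had a limma adjusted p of 0.0186 with the replicate block. The NF-kB list rises numbered 0 without the first non-pulsed array and 2 with the replicate block or after quantile normalization, and the falls numbered 7 under median centring. The MHC class I rises numbered 2 without the first non-pulsed array or the second non-pulsed array or under median centring and 1 without the first N4 array or the second N4 array, and the falls numbered 2 under median centring. In limma fits on 7 arrays the adjusted p was 0.182 for Malt1 without the first non-pulsed array, and 0.18 for Malt1 without the second N4 array. Malt1 (1.22 with the mean of probe sets, 0.46 with the median of probe sets and 1.45 without the trend) missed the limma threshold. H2-D1 (-0.34 after quantile normalization and -1.48 with the median of probe sets), H2-K1 (-0.26 after quantile normalization and -0.58 with the mean of probe sets) and Rela (-0.46 after quantile normalization) passed it. Ccl22 (-1.39 without the second N4 array) kept the call with a change of other size.

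Several of the 40 largest rises were in none of the lists. Perp, a membrane protein gene known from p53 responses, had 6.58 and 6.70 on the non-pulsed arrays and 10.24 and 9.68 on the N4 arrays. Ncs1, a neuronal calcium sensor gene, had 6.87 and 6.55 on the non-pulsed arrays and 10.49 and 9.87 on the N4 arrays, and Spin4, an X-linked reader of histone marks, had 4.30 and 4.99 on the non-pulsed arrays and 8.29 and 8.71 on the N4 arrays. In all 3 the N4 arrays were at least 3 log2 units above the lower non-pulsed array. Further genes known from other tissues rose as well: the hedgehog signal transducer gene Smo by 2.85, the activity-dependent neuronal factor Npas4 by 2.92, the neurofilament gene Nefh by 2.88 and the muscle methyltransferase gene Smyd1 by 3.26. By the array's naming, the probe sets of Smo here and of Ccr9, Dntt and Itgae above can match more than 1 transcript or gene. Ncs1 (1.68 with the median of probe sets), Npas4 (5.28 with offset 1 and 1.49 with offset 64), Smyd1 (4.98 with offset 1, 1.96 with offset 64, 1.18 with the mean of probe sets and 1.41 with the median of probe sets) and Spin4 (2.48 with offset 64) kept the call with a change of other size.

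Where a gene had several probe sets above the filter, they did not always move as one. Of 5938 such genes, 3065 had at least 1 probe set past the test; in 864 all probe sets passed in 1 direction, in 2166 some did, and in 35 probe sets passed in opposite directions. Ccnd3, a G1 cyclin, rose by 0.68 through its brightest probe set while another fell by 2.48. Nme1, a nucleoside diphosphate kinase gene, gave 0.62 and -2.28. Igfbp4 gave 1.74 and -0.99, so that its fall of 0.65 in the resting-state list depends on the probe set chosen. By the array's naming, the probe sets behind -2.28 for Nme1 and behind 1.74 and -0.99 for Igfbp4 can also match more than 1 transcript or gene. Leaving out 1 array moved the limma adjusted p to 0.218 for Igfbp4 without the first non-pulsed array, 0.0709 for Ccnd3 and 0.157 for Nme1 without the second non-pulsed array, 0.0907 for Ccnd3, 0.157 for Igfbp4 and 0.154 for Nme1 without the first N4 array, and 0.0535 for Igfbp4 without the second N4 array. Igfbp4 (-0.25 under median centring, -0.16 with the mean of probe sets and -0.65 with the 4 wild-type arrays alone or without the trend) and Nme1 (1.02 under median centring and 0.62 without the trend) missed the limma threshold. Ccnd3 (-0.48 with the mean of probe sets and -2.10 with the median of probe sets), Igfbp4 (0.11 with the median of probe sets) and Nme1 (-0.83 with the mean or median of probe sets) turned in sign.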

How the data were processed

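RNA of 8 one-colour Affymetrix mouse arrays was compared, 2 in each of 4 groups: wild-type cells with or without N4, and PKCtheta-deficient and p50 cRel-deficient cells with N4, which entered the fit and are not described. The deposited values are intensities on a linear scale. The submitters' processing notes name GCOS 1.4 and MAS5, and the trimmed mean was 500 on every array. The median signal was 33.6 to 70.3, the 3′/5′ ratio 0.778 to 0.861 for Gapdh and 1.03 to 1.20 for actin.

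Here 16 was added to each intensity before log2. Of 45101 probe sets, 64 were controls, 34945 had 1 symbol, 932 several and 9160 none, and 34741 matched RefSeq GRCm38.p6. Probe sets under the 40th percentile of mean signal (5.38) were left out, and each gene was read through its brightest probe set. limma 3.58.1 in R 4.3.3 fitted all 4 groups with 4 residual degrees of freedom and an intensity trend. Calls had a Benjamini-Hochberg adjusted p under 0.05. The fit was tested on simulated data.

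Same-numbered arrays deviated together: all 6 correlations of deviations between groups were 0.255 to 0.579. The numbers were therefore taken to pair the arrays, a title without a number being taken as 1. In each group the array numbered 2 also had the higher median signal, and whether the numbers pair cultures was not tested. The main fit did not use the number. The number as a block was an alternative, as were other offsets (1 and 64), quantile normalization, median centring, no filter or a 60th percentile filter, the mean or median of probe sets, the 4 wild-type arrays alone, no trend, each array left out, and shorter promoters.

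Members and lists were chosen with earlier results of these data known. Named genes were the 40 largest rises and falls, up to 8 list members with the largest called change and 3 with the smallest change per list, genes with opposed probe sets, and a few standard markers. Of 307 genes named, 84 fall outside that rule, a choice made with their values in view. Nfkb1 and Lck were not analysed here.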

Additional observations from a re-analysis of the deposited data

How the results depend on the processing

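Of 307 named genes, 253 kept call and direction under every alternative that gave them a value. Under the 60th percentile filter 293 of the 307 had a value. Under median centring 1441 genes were lower, and changes of at least 2-fold numbered 1891 higher and 1339 lower, beside 2942, 806 and 2022 in the main setting. Under median centring 2396 probe sets were lower, beside 4425. With each array left out in turn, 1405 to 1724 genes were higher and 2141 to 2534 lower, and probe sets numbered 1578 to 1844 higher and 2724 to 3291 lower. These fits have fewer arrays. With the replicate block 4446 probe sets were higher, and 2817 genes were higher and 3584 lower, among them all 5101 called without it. The block brought Bcl2, Cdc25b, Cenpa, H2-D1, Malat1, Ncl, Nr4a1, Pcna, Pdcd1, Pole3, Rela and Slc2a1 past the threshold and changed no other call of a named gene. Where probe sets of a gene were combined, Ccnd3 turned to -0.48 (mean) or -2.10 (median), Nme1 to -0.83, Gsdme to -0.20 and Rpgrip1 to -1.15 by either, and Igfbp4 to 0.11 (median), since their probe sets ran in opposite directions. With 250 bases before the start only, the E-box share in ribosome biogenesis was 2.17% and the E2F share in replication 16.7%. With 2 arrays in a group, precision is limited by the number of arrays, and changes near the filter threshold rest on dim signals.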

Other observations

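Long noncoding RNAs, a group chosen after their values were seen, moved both ways. Neat1, the RNA scaffold of paraspeckles, had 11.56 and 11.45 on the non-pulsed arrays and 7.27 and 9.04 on the N4 arrays, and fell by 3.35 (limma adjusted p 0.00775). With its probe sets averaged the change of Neat1 was -1.99. Mir22hg, the host transcript of miR-22, fell by 2.68. The snoRNA host gene Snhg3 rose by 1.41. Malat1, an abundant nuclear RNA, had 10.69 and 12.74 on the non-pulsed arrays and 8.76 and 12.28 on the N4 arrays and did not pass (limma adjusted p 0.578, or 0.0109 with the replicate block).

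The 2 N4 arrays lay at least 4-fold apart in 74 genes, of which 42 were higher on the first and 32 on the second. Genes higher on the first included Ms4a1 of B cells, at 9.67 and 6.57. Genes higher on the second included Bnip3, a mitophagy receptor gene induced by low oxygen, which had 9.83 and 10.56 on the non-pulsed arrays and 8.82 and 12.44 on the N4 arrays. Ddit4, an inhibitor of mTOR signalling, had 10.88 and 11.27 on the non-pulsed arrays and 10.35 and 12.83 on the N4 arrays. Neither Bnip3 nor Ddit4 passed the limma test, and in both the N4 arrays lay on either side of the non-pulsed ones.

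Among 9160 probe sets without a gene symbol, 118 were higher and 457 lower with N4. In a separate fit 20.9% of the probe sets with 1 symbol passed. Besides the genes given above, probe sets passed in opposite directions for Rpgrip1 (0.73 and -3.04), Gsdme (1.44 and -1.84), Pole3 (1.24 and -1.67) and Farsb (1.06 and -1.45). Of these, Gsdme encodes a pore-forming gasdermin, Pole3 a DNA polymerase epsilon subunit and Farsb a phenylalanyl-tRNA synthetase subunit. By the array's naming, the probe sets behind both values of Pole3 and behind 1.06 for Farsb can match more than 1 transcript or gene.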
